A study of Mus musculus with 18 samples.

Results

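The genes described here are 10 genes that fibroblasts of the brain's coverings are known to express: the small leucine-rich proteoglycan genes Dcn, Lum, Ogn and Fmod, the fibrillar collagen genes Col1a1, Col1a2 and Col3a1, the growth factor gene Igf2 and the transporter genes Slc6a13 and Slc22a6. They were taken by symbol from a table of expression values, and all 10 were found among its 18683 genes. The values are FPKM, in which a gene's fragments are divided by its length and by the size of the library.

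The meninges are the membranes around the brain. Their fibroblasts lay down fibrillar collagen and the proteoglycans that bind to it, and they follow larger vessels into the tissue. The inner layers of the meninges form part of the barrier around the cerebrospinal fluid, and their cells carry transporters that move neurotransmitters and organic anions across it. A bulk sample of cortex or hippocampus holds few such cells, and how much membrane stays on the tissue can differ from one dissection to the next.

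RNA of prefrontal cortex and hippocampus was sequenced in 18 libraries, with 3 libraries in each of 6 groups. All mice were male, of the strain given as C57BL/6J, and were injected intravenously every 3 days, 10 times, between 5 and 6 months of age. Each tissue had a wildtype group and a 5xFAD group that received PBS, and a 5xFAD group that received extracellular vesicles derived from human breast milk (the vesicle group). 5xFAD mice carry mutated human transgenes under the Thy1 promoter, which drives them in neurons, and they deposit amyloid. All groups were taken after behavioural tests and perfused with cold PBS. Whether replicates came from separate mice, and whether 1 number in both tissues marks 1 mouse, is not in the labels. P-values therefore reflect only how far these samples spread, and part or all of that spread may be technical.

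Between 26437852 and 36901744 reads of each library fell in the genes of the table. Summed markers of hippocampal neurons were 136 to 198 FPKM in the hippocampus libraries and 32.9 to 51.6 FPKM in the cortex libraries. Replicate 3 of the vesicle group in prefrontal cortex stood apart: its 13 choroid plexus markers summed to 1061 FPKM, against 65.0 to 85.4 FPKM in the other cortex libraries, and its neocortical markers summed to 115 FPKM, against 170 to 208 FPKM. In the hippocampus the choroid plexus markers summed to 93.3, 159 and 238 FPKM in wildtype, 3077, 10038 and 3260 FPKM in 5xFAD PBS, and 6630, 2667 and 266 FPKM in the vesicle group. In a bulk sample, more or fewer cells of a type cannot be told apart from more or less RNA per cell.

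The stretches upstream of 4 members are shown. Ogn was the member that passed the test between genotypes, and Fmod, Col1a2 and Slc22a6 were added as a proteoglycan, a collagen and a transporter gene. Each is the 250 bases before the transcript start from RefSeq on GRCm38.p6, a different build from the one named for the expression data. Of the 10 members, 7 matched the promoter table. The CCAAT motif, the TATAAA motif, the GGGCGG motif and the CATTCC motif (the reverse complement of GGAATG) were searched on both strands, and matches are in capitals.
Ogn, chr13:49607765-49608014, plus strand: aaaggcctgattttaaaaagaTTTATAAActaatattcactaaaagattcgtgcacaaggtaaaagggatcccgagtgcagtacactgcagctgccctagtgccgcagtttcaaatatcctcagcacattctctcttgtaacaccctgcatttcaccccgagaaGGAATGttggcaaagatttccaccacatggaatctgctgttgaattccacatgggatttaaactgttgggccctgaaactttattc
Fmod, chr1:134037004-134037253, plus strand: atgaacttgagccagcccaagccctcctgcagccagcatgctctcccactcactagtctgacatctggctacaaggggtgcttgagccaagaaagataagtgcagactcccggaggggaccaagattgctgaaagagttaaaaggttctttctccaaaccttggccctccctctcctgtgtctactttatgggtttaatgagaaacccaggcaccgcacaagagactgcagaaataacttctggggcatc
Col1a2, chr6:4505368-4505617, plus strand: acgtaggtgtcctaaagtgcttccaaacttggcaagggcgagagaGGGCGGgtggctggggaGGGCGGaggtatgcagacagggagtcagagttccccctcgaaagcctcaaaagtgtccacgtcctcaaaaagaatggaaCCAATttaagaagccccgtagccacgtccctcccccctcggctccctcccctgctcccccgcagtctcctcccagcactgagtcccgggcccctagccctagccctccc
Slc22a6, chr19:8617746-8617995, plus strand: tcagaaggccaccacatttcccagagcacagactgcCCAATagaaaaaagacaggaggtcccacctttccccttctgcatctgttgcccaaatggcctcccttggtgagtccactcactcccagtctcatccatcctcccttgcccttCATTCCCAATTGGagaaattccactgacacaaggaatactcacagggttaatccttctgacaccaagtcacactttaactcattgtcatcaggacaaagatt

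Positions are given for the match's base nearest the upstream end, with -1 the base before the start. Col1a2 held CCAAT at -109 and GGGCGG at -205 and -188. Ogn held TATAAA at -229 and -227, which overlap on opposite strands, and CATTCC at -86. Slc22a6 held CCAAT at -214, -97 and -94 and CATTCC at -102, of which the last 3 in position overlap. Fmod held no match, so these 4 stretches share no motif of the search. Over 32851 promoters of the same length, CCAAT was in 33.85%, TATAAA in 12.37%, GGGCGG in 32.74% and CATTCC in 12.64%. A match is a string of letters, not a site of binding.

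Across tissues, Dcn passed the test for a higher level in hippocampus in every group, and Lum in wildtype and 5xFAD PBS. Dcn encodes decorin, a secreted proteoglycan that binds collagen fibrils. In prefrontal cortex Dcn was 5.85, 8.83 and 5.31 FPKM in wildtype, 5.54, 8.23 and 7.29 FPKM in 5xFAD PBS, and 5.78, 10.6 and 13.1 FPKM in the vesicle group. In hippocampus it was 28.0, 21.8 and 40.8 FPKM in wildtype, 47.8, 49.98 and 35.4 FPKM in 5xFAD PBS, and 33.7, 39.0 and 25.04 FPKM in the vesicle group. All 9 hippocampus libraries lay above all 9 cortex libraries. The difference in log2(FPKM + 0.5) between hippocampus and prefrontal cortex was 2.08 (SE 0.28, adjusted p = 7.8e-05) in wildtype, 2.58 (SE 0.28, adjusted p = 1.0e-05) in 5xFAD PBS and 1.73 (SE 0.28, adjusted p = 0.00043) in the vesicle group, by limma with Benjamini-Hochberg adjustment over all genes tested.

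Lum, the gene of lumican, lies next to Dcn in the RefSeq gene order and had a lower level. Lum was 0.64, 1.58 and 1.19 FPKM in wildtype cortex and 1.92, 2.20 and 3.58 FPKM in wildtype hippocampus, with no overlap, and Dcn and Lum were the 2 members with every wildtype hippocampus library above every cortex library, as 19.3% of genes were. The log2 difference was 0.91 (SE 0.28, adjusted p = 0.035) in wildtype, and the call was lost without replicate 1 or 3 of wildtype cortex (adjusted p = 0.18 and 0.069) or replicate 2 or 3 of wildtype hippocampus (adjusted p = 0.059 and 0.18). In 5xFAD PBS, Lum was 0.53, 1.27 and 1.05 FPKM in cortex and 4.59, 6.13 and 2.99 FPKM in hippocampus, a log2 difference of 1.79 (SE 0.28, adjusted p = 0.00025). In the vesicle group it was 1.04, 1.84 and 1.94 FPKM in cortex and 3.13, 3.15 and 3.15 FPKM in hippocampus, a log2 difference of 0.82 (SE 0.28, adjusted p = 0.056). The tissue groups did not overlap under any of the 3 conditions, though the last difference did not pass the test.

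Ogn and Fmod, which belong to the same protein class, had overlapping values in the wildtype tissues. Ogn, the gene of osteoglycin, averaged 4.73 ± 2.08 FPKM in wildtype cortex and 5.05 ± 1.54 FPKM in wildtype hippocampus (SD, n = 3), a log2 difference of 0.12 (SE 0.34). Fmod, the gene of fibromodulin, averaged 7.78 ± 2.42 FPKM and 9.17 ± 6.00 FPKM (SD, n = 3), a log2 difference of 0.02 (SE 0.42). These standard errors leave room for differences of either sign, and leaving out replicate 3 of either tissue turned both below 0.

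Of the 10 members, 2 rose in hippocampus against cortex in wildtype (Dcn and Lum), where 15.9% of the 13574 genes tested were called in either direction. In 5xFAD PBS 4 rose (Dcn, Lum, Igf2 and Ogn), where 25.1% of genes were called, and in the vesicle group 1 rose (Dcn), where 16.9% were called. The median log2 difference of the members was 0.20 in wildtype, 0.91 in 5xFAD PBS and -0.33 in the vesicle group, against 0.04, 0.06 and -0.01 over all genes. The wildtype median turned to -0.042, with 4 of 10 members above 0, without wildtype hippocampus replicate 3. It was 0.60 without hippocampus replicate 1, 0.40 without cortex replicate 2 and 0.065 without cortex replicate 3. Without replicate 3 of 5xFAD PBS hippocampus, 8 members were called in that condition, and the fewest without any 1 library was 3. Without replicate 3 of vesicle cortex, the vesicle median was -0.14.

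**Figure D1:**
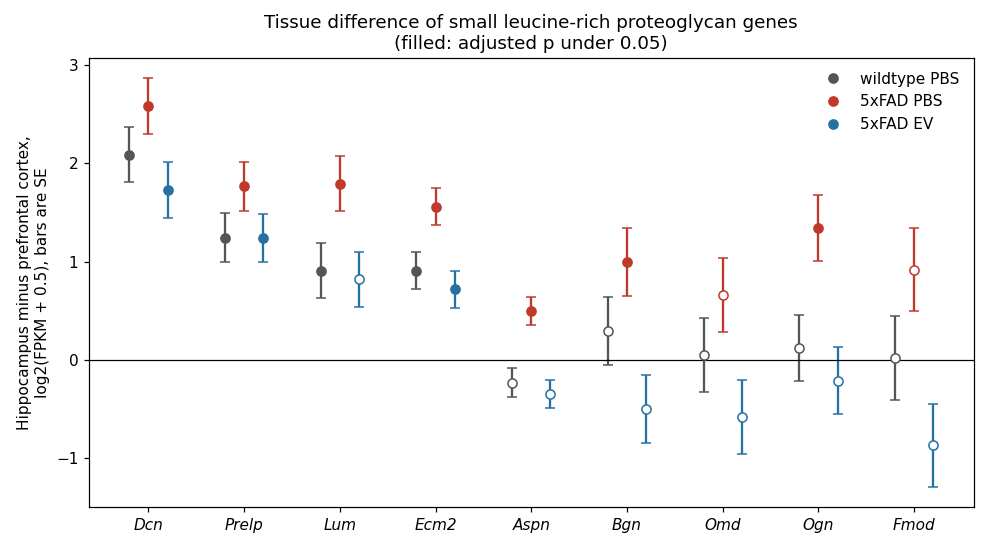
Hippocampus minus prefrontal cortex in log2(FPKM + 0.5) for 9 small leucine-rich proteoglycan genes, with SE bars, in wildtype PBS (grey), 5xFAD PBS (red) and the vesicle group (blue). Filled points have an adjusted p under 0.05. Dcn is highest in each condition, and Ogn and Fmod lie near 0 in wildtype.

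Other proteoglycan genes of the class were read from a list of 10 genes, 6 of which passed the filter on low values. In wildtype, 2 of these 6 rose in hippocampus, where 15.9% of genes were called in either direction. Prelp, next to Fmod in the gene order, rose by 1.24 (SE 0.25, adjusted p = 0.0022) and Ecm2 by 0.91 (SE 0.19, adjusted p = 0.0030) on the log2 scale. Prelp averaged 4.67 ± 0.58 FPKM in wildtype cortex and 11.8 ± 1.93 FPKM in wildtype hippocampus (SD, n = 3). Bgn, the gene of biglycan and a close relative of Dcn, differed by 0.30 (SE 0.35, adjusted p = 0.64). In 5xFAD PBS 4 of the 6 rose (Prelp, Ecm2, Bgn and Aspn), where 25.1% of genes were called. In the vesicle group 2 did (Prelp and Ecm2), where 16.9% were called. In 5xFAD PBS, Bgn was not called without cortex replicate 1 or 3 or hippocampus replicate 1 or 2 (adjusted p = 0.072 to 0.21), nor Aspn without replicate 1 or 2 of either tissue (0.053 to 0.083). In the vesicle group, Ecm2 was not called without cortex replicate 1 or 2 or hippocampus replicate 1 (0.057 to 0.084). Omd, next to Ogn, differed by 0.05 (SE 0.38) in wildtype. Differences between neighbouring genes were not tested.

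The neighbours of other members gave their own values. Kera, on the far side of Lum, was at or under 0.04 FPKM in every library. Bet1 and Casd1, on either side of Col1a2, differed between wildtype tissues by -0.11 (adjusted p = 0.61) and -0.10 (adjusted p = 0.44). Neither of these encodes a matrix protein of fibroblasts.

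The collagen genes were expressed at low levels in both tissues. Col1a1 and Col1a2 encode the chains of type I collagen, the main fibrillar collagen, and Col3a1 encodes type III collagen, found with it in soft connective tissue. Over all libraries Col1a1 ranged from 0.59 to 1.94 FPKM, Col1a2 from 1.24 to 6.30 FPKM and Col3a1 from 0.10 to 1.10 FPKM. The lowest Col3a1 value rested on 18 reads, and in cortex Col3a1 did not reach 0.5 FPKM in 3 libraries and was not tested within that tissue. None of the 3 collagen genes passed the test between tissues in any condition.

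Col1a2 showed how far replicates of a group could differ. It was 1.24, 2.63 and 4.0 FPKM in wildtype hippocampus, 4.68, 6.30 and 3.21 FPKM in 5xFAD PBS hippocampus, and 2.12, 2.22 and 2.18 FPKM in vesicle hippocampus. In cortex it was 2.46, 2.94 and 2.56 FPKM in wildtype, 2.47, 3.56 and 3.18 FPKM in 5xFAD PBS, and 2.91, 3.34 and 4.82 FPKM in the vesicle group. The wildtype hippocampus libraries differed by 3.23 times from lowest to highest, a coefficient of variation of 52.7% against 4.56% from counting of reads, whereas the vesicle hippocampus libraries had a coefficient of variation of 2.19%.

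The other 2 collagen genes had the same highest and lowest libraries as Col1a2 in wildtype and 5xFAD PBS hippocampus. In the vesicle group neither had both the same: Col1a2 was lowest in replicate 1, Col1a1 in replicate 2 and Col3a1 in replicate 3. In hippocampus Col1a1 was 0.59, 1.23 and 1.36 FPKM in wildtype, 1.64, 1.94 and 1.06 FPKM in 5xFAD PBS, and 0.79, 0.74 and 0.77 FPKM in the vesicle group. Col3a1 was 0.10, 0.46 and 1.07 FPKM, 1.03, 1.10 and 0.36 FPKM, and 0.22, 0.32 and 0.22 FPKM in the same order. For Col3a1 the highest wildtype hippocampus library was 10.7 times the lowest, the widest spread of any member in any group.

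**Figure D2:**
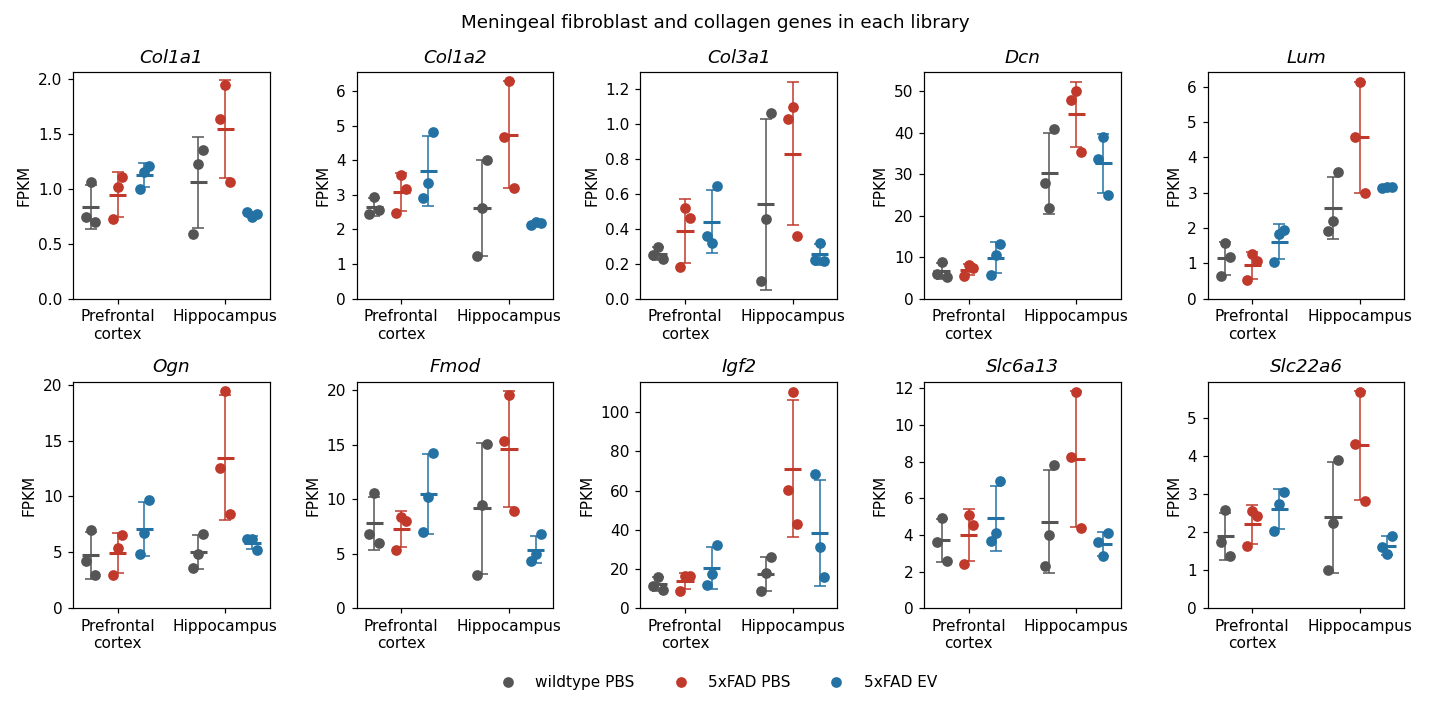
FPKM (y axis, from 0) of the 10 members in each library, by tissue (x axis) and condition (grey wildtype PBS, red 5xFAD PBS, blue vesicle group). Points are libraries in replicate order, bars are group means and error bars are SD (n = 3). For each member the highest mean is that of 5xFAD PBS hippocampus, and Dcn separates the tissues in every condition.

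Between genotypes in the hippocampus, Ogn was the member that passed the test. Ogn was 3.64, 4.84 and 6.69 FPKM in wildtype and 12.6, 19.4 and 8.44 FPKM in 5xFAD PBS, with every 5xFAD PBS library above every wildtype library. It rose by 1.29 on the log2 scale (SE 0.28, adjusted p = 0.028). Thus 1 of 10 members was called, where 4.59% of the 13305 genes tested were. The call did not hold without 1 of 4 libraries: adjusted p was 0.10 and 0.098 without wildtype replicate 1 or 2, and 0.078 and 0.066 without 5xFAD PBS replicate 1 or 2.

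Igf2, the gene of insulin-like growth factor 2, had the largest difference of the members but a wider error. It was 8.68, 18.2 and 26.0 FPKM in wildtype hippocampus and 60.1, 111 and 43.1 FPKM in 5xFAD PBS hippocampus. The groups did not overlap, and the log2 difference was 2.0 (SE 0.55, adjusted p = 0.078), which missed the threshold. Igf2 and Ogn were the 2 members with all 5xFAD PBS libraries above all wildtype libraries, as 16.5% of genes were.

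The choroid plexus epithelium is also known to express Igf2, and its markers moved with this comparison: 9 of 13 choroid plexus markers rose, with a median log2 difference of 3.64. Ttr, the transthyretin gene that defines that epithelium, was 29.7, 76.5 and 159 FPKM in wildtype and 2532, 8684 and 2697 FPKM in 5xFAD PBS hippocampus. No choroid plexus marker was at 0 in any hippocampus library. Their part in the differences of Ogn, Igf2 and the other members was not tested. Ins2, next to Igf2 in the gene order, was 0.05, 0 and 0 FPKM in wildtype and 1.33, 1.96 and 0.61 FPKM in 5xFAD PBS. The use of strand in counting is not given in the sources used here, so reads of overlapping or antisense transcripts at Igf2 cannot be told apart from its own.

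The other 8 members did not pass the test between genotypes in the hippocampus, and all of their differences were above 0. Fmod was 3.05, 9.43 and 15.0 FPKM in wildtype and 15.3, 19.5 and 8.96 FPKM in 5xFAD PBS, a log2 difference of 0.82 (SE 0.47, adjusted p = 0.40). Slc6a13, which encodes a GABA and taurine transporter, was 2.32, 4.02 and 7.80 FPKM against 8.26, 11.8 and 4.40 FPKM, a log2 difference of 0.77 (SE 0.40, adjusted p = 0.34). Slc22a6, which encodes the organic anion transporter OAT1, was 1.01, 2.24 and 3.90 FPKM against 4.32, 5.69 and 2.82 FPKM, a log2 difference of 0.81 (SE 0.35, adjusted p = 0.25).

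In each of these genes wildtype replicate 3 lay above 5xFAD PBS replicate 3, so the groups overlapped. The log2 difference was 0.58 (SE 0.24) for Dcn, 0.71 (SE 0.24) for Lum, 0.81 (SE 0.32) for Col1a2, 0.41 (SE 0.22) for Col1a1 and 0.41 (SE 0.34) for Col3a1. The median over the 10 members was 0.79, against 0.02 over all genes. It was 0.42 without wildtype replicate 1 and 1.18 without wildtype replicate 3, the latter over 9 members, as Col3a1 then fell under the filter. Without wildtype replicate 1, the difference was 0.17 for Col1a1, 0.066 for Col3a1 and 0.22 for Fmod.

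In prefrontal cortex the same contrast gave small values. None of the 9 members tested was called, where 1.96% of 13055 genes were, and the median log2 difference was 0.09 with 7 of 9 above 0. Ogn was 4.23, 7.02 and 2.95 FPKM in wildtype and 3.00, 5.37 and 6.53 FPKM in 5xFAD PBS, a log2 difference of 0.08 (SE 0.33). Igf2 was 11.3, 16.2 and 9.42 FPKM against 9.08, 16.4 and 16.4 FPKM, a difference of 0.16 (SE 0.34). Without wildtype replicate 3 both differences were below 0 (-0.18 and -0.0088), as was the median (-0.050). All 9 tested members overlapped between the groups, while 14.7% of genes did not overlap in either direction.

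The difference between tissues in the genotype effect was tested as an interaction. It was 1.84 (SE 0.71, adjusted p = 0.72) for Igf2, 1.21 (SE 0.48, adjusted p = 0.72) for Ogn and 0.88 (SE 0.40, adjusted p = 0.81) for Lum, with an unadjusted p of 0.020, 0.022 and 0.040. No gene passed the adjusted threshold in limma (0.00% of 13574) or in voom on recovered reads, and 787 genes (5.80%) had an unadjusted p under 0.05 in limma. An effect in hippocampus that differs from that in cortex was thus not shown for any member.

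**Figure D3:**
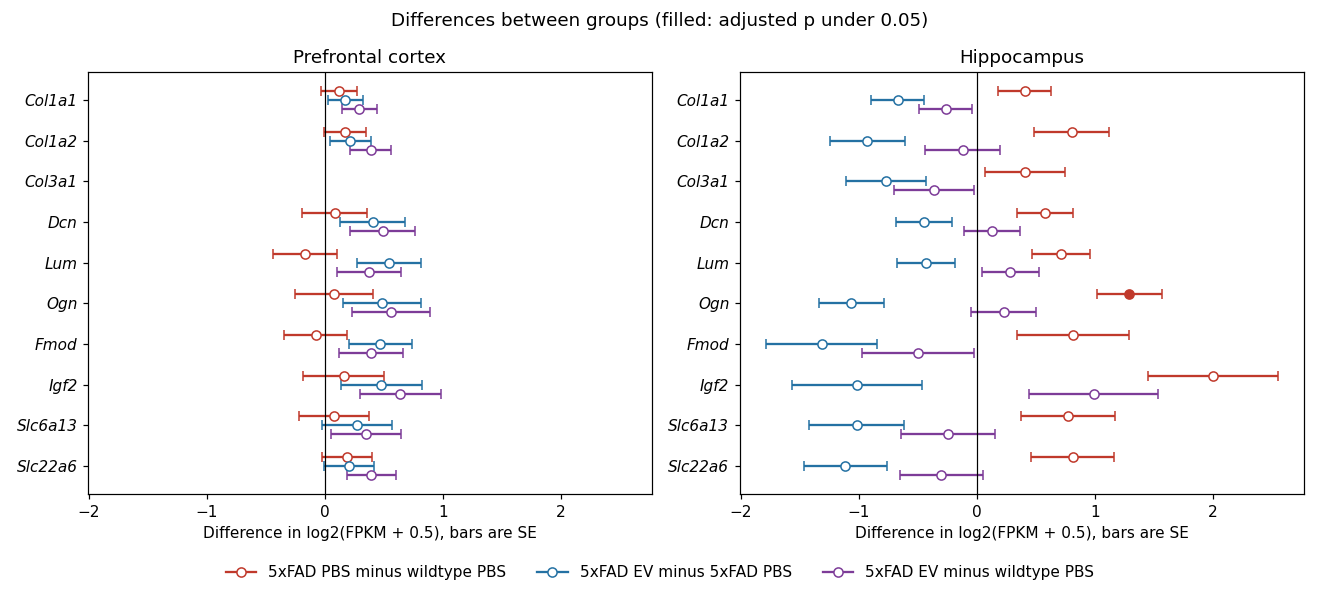
Differences in log2(FPKM + 0.5) between groups within each tissue, with SE bars, for the members tested (Col3a1 was not tested in cortex). Red is 5xFAD PBS minus wildtype, blue is vesicle group minus 5xFAD PBS, and purple is vesicle group minus wildtype; Ogn in red in the hippocampus, at 1.29, is the filled point, with an adjusted p under 0.05.

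Between the vesicle group and 5xFAD PBS in the hippocampus, no member was called. All 10 log2 differences were below 0, with a median of -0.97 against -0.02 over all genes, and each had an adjusted p of 0.87. No gene in the whole table passed the adjusted threshold in limma (0.00% of 13305) or in voom on recovered reads. At an unadjusted p under 0.05 there were 519 genes (3.90%) in limma, and 7 of the 10 members were among them. These are not 7 separate results, as the members moved together within most groups. Of these 7, Col3a1 reached the filter's 0.5 FPKM only in 5xFAD PBS replicates 1 and 2 and wildtype replicate 3. Its place among the genes tested thus rested on libraries where it was high, and no vesicle library reached 0.5 FPKM. Without any 1 of the libraries compared, the median ranged from -1.23 to -0.71. The -0.71 was over the 9 members tested without 5xFAD PBS replicate 2. The comparison shares the 5xFAD PBS libraries with the one between genotypes, so a high value in those libraries enters both.

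Fmod had the largest of these differences. It was 4.36, 5.01 and 6.79 FPKM in the vesicle group, each below the lowest 5xFAD PBS library, and the log2 difference was -1.31 (SE 0.47). Ogn was 6.19, 6.21 and 5.19 FPKM, a difference of -1.06 (SE 0.28, unadjusted p = 0.0034). Slc22a6 was 1.61, 1.43 and 1.91 FPKM (-1.11, SE 0.35) and Slc6a13 was 3.62, 2.84 and 4.14 FPKM (-1.02, SE 0.40).

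For 7 members every vesicle library lay below every 5xFAD PBS library (Ogn, Fmod, Col1a1, Col1a2, Col3a1, Slc6a13 and Slc22a6), as 5.21% of genes did. Among them, Col3a1 passed the filter through no vesicle library. Dcn, Lum and Igf2 overlapped. Their differences were -0.45 (SE 0.24), -0.43 (SE 0.24) and -1.01 (SE 0.55). The Igf2 difference was -0.51 without vesicle replicate 3, -0.64 without 5xFAD PBS replicate 2 and -1.54 without vesicle replicate 1. Igf2 varied most: 68.3, 31.3 and 15.8 FPKM in the vesicle group, where the highest library was 4.32 times the lowest.

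Against wildtype hippocampus, the vesicle group differed by a median of -0.18, with 4 of 10 members above 0 and none called, where 2.10% of genes were. Without wildtype replicate 3 the median over the 9 members then tested was 0.20, the opposite sign. All 10 members overlapped between these groups, while 18.6% of genes did not. Igf2 had the largest difference, 0.99 (SE 0.55, adjusted p = 0.54), which was 0.46 without vesicle replicate 1, 0.56 without wildtype replicate 1 and 1.497 without vesicle replicate 3. This comparison shares samples with both others in the tissue: for Ogn the 3 log2 differences were 1.29 (5xFAD PBS minus wildtype), -1.06 (vesicle minus 5xFAD PBS) and 0.23 (vesicle minus wildtype), and for Igf2 they were 2.0, -1.01 and 0.99.

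In prefrontal cortex the vesicle group's values lay on the other side. Against 5xFAD PBS, all 9 members tested had a log2 difference above 0, from 0.17 for Col1a1 to 0.54 for Lum, with a median of 0.40 and none called. No gene was called in limma (0.00% of 13055) or in voom, and 616 genes (4.72%) had an unadjusted p under 0.05 in limma, none of them a member. Without replicate 3 of the vesicle group, the library with high choroid plexus markers, the median was 0.13, and without replicate 1 it was 0.70. Igf2 was 11.97, 17.6 and 32.3 FPKM and Ogn 4.90, 6.70 and 9.64 FPKM, with replicate 3 the highest for all 10 members.

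Fmod in vesicle cortex was 6.97, 10.2 and 14.3 FPKM, against 5.36, 8.40 and 8.04 FPKM in 5xFAD PBS, a log2 difference of 0.47 (SE 0.27). Against wildtype cortex the median over 9 members was 0.39, with none called where 1.52% of genes were. That median was 0.25 without vesicle replicate 3, and 0.59 without vesicle replicate 1 or wildtype replicate 2. For Col3a1, which was under the filter, the vesicle libraries (0.36, 0.32 and 0.65 FPKM) lay above the wildtype ones (0.25, 0.30 and 0.23 FPKM), an order found in 13.6% of the genes tested. Its values rest on few reads.

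The vesicle effect in hippocampus minus that in cortex was below 0 for all 10 members, with a median of -1.21. It was -1.55 (SE 0.48) for Ogn, -1.78 (SE 0.60) for Fmod, -1.32 (SE 0.44) for Slc22a6, -1.14 (SE 0.39) for Col1a2 and -0.84 (SE 0.28) for Col1a1, each with an adjusted p of 0.99. At an unadjusted p under 0.05 there were 8 members, against 5.01% of all genes, and none passed the adjusted threshold, as for all genes (0.00%). The members moved together within most groups, so these are not 8 separate results. Without replicate 3 of vesicle cortex the median was -0.99.

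Tissue differences by condition show the same values from the other side. In 5xFAD PBS 6 of 10 members were higher in every hippocampus library than in every cortex library, as 25.9% of genes were. In the vesicle group 2 were higher (Dcn and Lum, 15.4% of genes) and 4 lower (Fmod, Slc22a6, Col1a1 and Col1a2, 15.5% of genes).

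Within groups, the members were high or low in the same libraries. In wildtype cortex all 10 were highest in replicate 2, in vesicle cortex and wildtype hippocampus all 10 were highest in replicate 3, and in 5xFAD PBS hippocampus all 10 were highest in replicate 2 and lowest in replicate 3. In 5xFAD PBS cortex all 10 were lowest in replicate 1. The vesicle hippocampus differed: 2, 4 and 4 members were highest in replicates 1, 2 and 3. Counts of members in the comparisons are therefore not counts of independent genes.

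**Figure D4:**
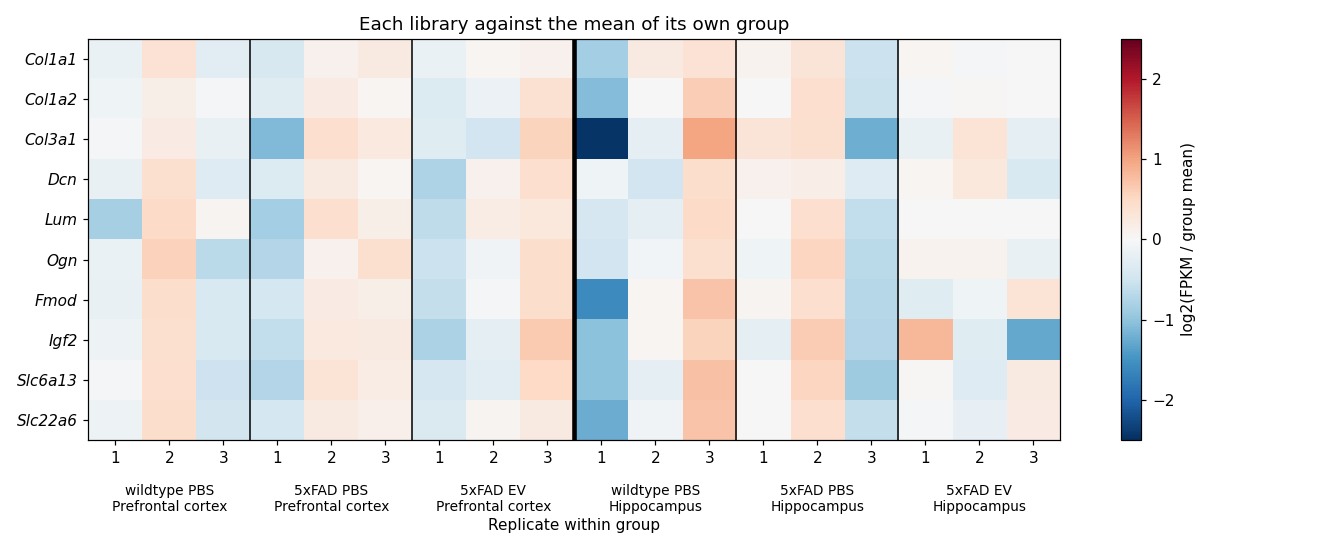
Log2 of each library's FPKM over its own group mean, for the 10 members (rows) in the 18 libraries (columns, grouped by condition and tissue), with red above and blue below the group mean. In every group but vesicle hippocampus at least 1 column is of 1 colour, though several columns hold both. In vesicle hippocampus Igf2 is the gene that departs most, from 68.3 to 15.8 FPKM.

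The likeness of each member to the mean of all 10 was measured as Pearson's r over the 18 libraries, on values scaled per gene. Each member is itself part of that mean, which raises its r. These libraries share groups and tissues, so r is a description. The highest was 0.956 for Slc6a13, and Slc22a6 (0.944), Ogn (0.940) and Col1a1 (0.935) followed. Dcn had the lowest, 0.616, and Lum 0.765. Within the 9 cortex libraries Dcn reached 0.942, and within the 9 hippocampus libraries 0.751.

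Symbols with a Gm number or Rik were left out of the search for other genes like that mean. The 5 most like it were Aebp1 (r = 0.975 over 18 libraries), Slc6a20a (0.957), Bgn (0.956), Serping1 (0.954) and Colec12 (0.950). Unlike the members, these genes are not part of the mean. Within cortex their r was 0.846 to 0.968 and within hippocampus 0.952 to 0.989. Aebp1 encodes a matrix protein that binds collagen. It was 2.86, 5.09 and 7.52 FPKM in wildtype, 8.78, 11.1 and 5.32 FPKM in 5xFAD PBS and 5.47, 4.48 and 3.62 FPKM in vesicle hippocampus, so its order over the wildtype and 5xFAD PBS libraries was that of Col1a2.

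The ratio of Igf2 to Col1a2, chosen after the values were seen, was 3.67 to 6.70 in all cortex libraries and 7.01, 6.93 and 6.50 in wildtype hippocampus. It was 12.8, 17.5 and 13.4 in 5xFAD PBS hippocampus and 32.2, 14.1 and 7.25 in vesicle hippocampus. The 3 vesicle libraries stood in the same order for the ratio and for the choroid plexus sum (6630, 2667 and 266 FPKM), whereas their Col1a2 values differed by 1.04 times. The orders also matched in 5xFAD PBS hippocampus (sums of 3077, 10038 and 3260 FPKM). In wildtype hippocampus they were opposite (sums of 93.3, 159 and 238 FPKM). Vesicle cortex replicate 3, with a choroid plexus sum of 1061 FPKM, had a ratio of 6.70, below the 7.01 of wildtype hippocampus replicate 1, whose sum was 93.3 FPKM. The part of choroid plexus in the ratio was not tested.

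**Figure D5:**
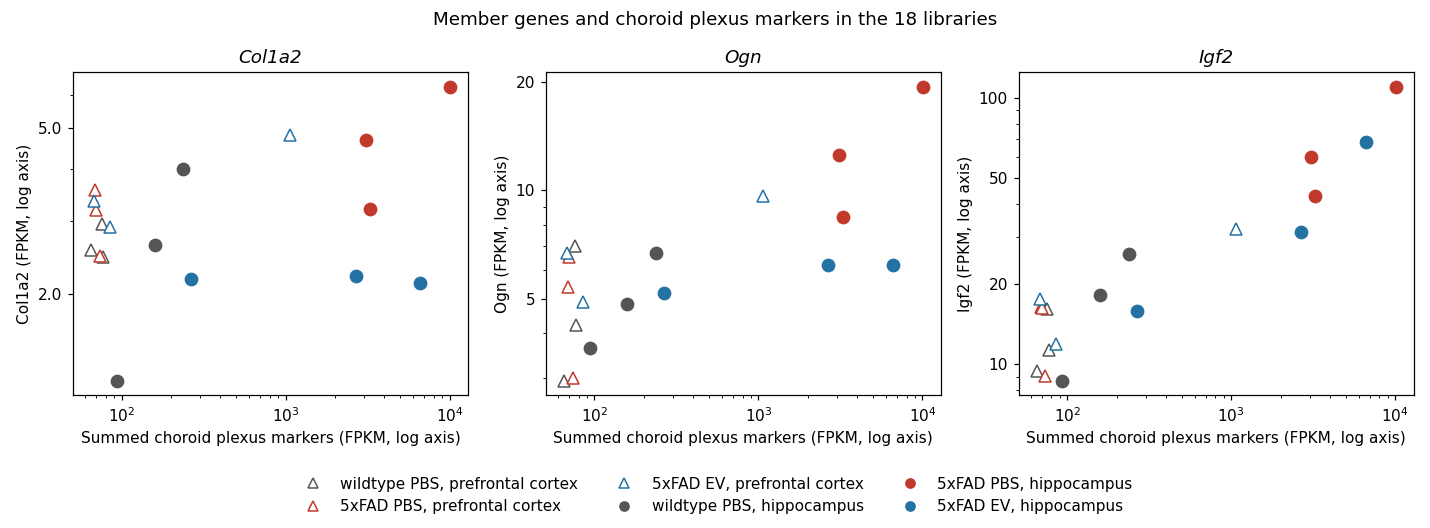
FPKM of Col1a2, Ogn and Igf2 (y axes, log) against the summed FPKM of 13 choroid plexus markers (x axes, log) in the 18 libraries, with open triangles for cortex, filled circles for hippocampus and colours for the groups. Among the vesicle hippocampus libraries (filled blue), Igf2 lies between 15.8 and 68.3 FPKM while Col1a2 stays between 2.12 and 2.22 FPKM.

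Other genes of the pathways were read from lists. Of 30 further fibroblast and meningeal matrix genes, 24 were tested in the hippocampus between genotypes; none was called, 23 were above 0, and the median was 0.47. Between the vesicle group and 5xFAD PBS in the hippocampus none of 24 was called, 2 were above 0, and the median was -0.63. In cortex none of 21 was called in either comparison, with medians of 0.14 and 0.14. Between tissues in wildtype, 1 of 25 rose (Cdh11, a cadherin, 0.31) and 1 fell: Col6a1, a chain of type VI collagen, by -1.15 (SE 0.23, adjusted p = 0.0020). Over all genes 15.9% were called in that comparison. Cdh11 was not called with median-ratio scaling (adjusted p = 0.10), nor without wildtype cortex replicate 1 or 2 or any wildtype hippocampus replicate (0.051 to 0.17). Between tissues in 5xFAD PBS 8 of the 25 rose and 2 fell (median 0.49), where 25.1% of genes were called. In the vesicle group 1 rose and 5 fell (median -0.33), where 16.9% were called.

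Genes that modify or assemble collagen gave 2 calls of 17 between genotypes in the hippocampus, where 4.59% of genes were called. Crtap rose by 0.87 (SE 0.20, adjusted p = 0.040) and P4ha3 by 0.55 (SE 0.13, adjusted p = 0.041). Both take part in the hydroxylation of proline in procollagen. The Crtap call was lost without any wildtype replicate or 5xFAD PBS replicate 1 or 2 (adjusted p = 0.056 to 0.14), the P4ha3 call without any 1 of the 6 libraries (0.073 to 0.16), and both in voom on recovered reads (0.063 and 0.066). Without 1 library the differences were 0.62 to 1.01 for Crtap and 0.47 to 0.59 for P4ha3. Between tissues in wildtype 3 of 17 rose, where 15.9% of genes were called in either direction. The largest difference was that of Sparc, a collagen-binding matricellular gene, at 0.81 (SE 0.20, adjusted p = 0.0097). The Sparc call was lost without wildtype cortex replicate 1 or hippocampus replicate 3 (adjusted p = 0.059 for each). Serpinh1, the collagen chaperone, differed by 0.31 (SE 0.21, adjusted p = 0.38) in wildtype and rose by 0.97 (SE 0.21, adjusted p = 0.0035) in 5xFAD PBS.

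Of the insulin-like growth factor genes beside Igf2, 13 were tested. Over all genes 4.59% were called between genotypes in hippocampus and 1.96% in cortex. In the hippocampus Igf1 rose between genotypes by 0.74 (SE 0.17, adjusted p = 0.038), and in cortex Igfbp5, a binding protein, rose by 0.53 (SE 0.10, adjusted p = 0.024). Igf1 was not called without any wildtype replicate or 5xFAD PBS replicate 1 or 3 (adjusted p = 0.064 to 0.12), nor Igfbp5 without wildtype replicate 1 or 3 or any 5xFAD PBS replicate (0.073 to 0.11). The receptor genes Igf1r and Igf2r differed between genotypes in the hippocampus by -0.14 (SE 0.17) and 0.13 (SE 0.22). Igfbp2, a binding protein, was 10.3, 15.5 and 27.7 FPKM in wildtype, 52.9, 129 and 44.6 FPKM in 5xFAD PBS and 78.2, 32.9 and 16.1 FPKM in vesicle hippocampus, and within each group its order of libraries was that of Igf2. Its genotype difference was 2.0 (SE 0.58, adjusted p = 0.093).

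Transporters around Slc6a13 and Slc22a6 did not pass the test between genotypes in the hippocampus, other than Slc1a5, a neutral amino acid transporter (0.88, SE 0.17, adjusted p = 0.019), the 1 call of 14 barrier transporters. Over all genes 4.59% were called in that comparison. The Slc1a5 call was lost without any wildtype replicate or 5xFAD PBS replicate 1 or 2 (adjusted p = 0.050 to 0.077). Slc6a12, the neighbour of Slc6a13 and a betaine and GABA transporter, was 0.13, 0.38 and 1.67 FPKM in wildtype, 1.55, 1.94 and 0.44 FPKM in 5xFAD PBS and 0.36, 0.14 and 0.32 FPKM in vesicle hippocampus. Slc22a8, the neighbour of Slc22a6 that encodes OAT3, differed by 0.71 (SE 0.37, adjusted p = 0.35) between genotypes and by -0.68 (SE 0.37) between the vesicle group and 5xFAD PBS. Slc6a11, a GABA transporter of astrocytes, differed between genotypes by 0.10 (SE 0.18).

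Markers of other cells of the borders and vessels were summed for the hippocampus comparison of genotypes. Border macrophage markers (0 of 7 tested called, median 0.80) summed to 3.77 to 7.33 FPKM in wildtype, 9.63 to 14.5 FPKM in 5xFAD PBS and 4.42 to 7.10 FPKM in the vesicle group. Mural cell markers (0 of 11, median 0.11) summed to 68.7 to 127, 72.6 to 141 and 74.6 to 93.8 FPKM, and endothelial markers (0 of 10, median 0.15) to 80.6 to 88.2, 81.7 to 103 and 72.9 to 103 FPKM. Ependymal markers (0 of 8 called) summed to 83.8 to 110, 82.3 to 237 and 70.9 to 158 FPKM, erythroid markers (0 of 4 called) to 2.01 to 34.6, 3.35 to 9.90 and 10.0 to 59.9 FPKM, and microglial markers rose (9 of 10). Their part in the members' differences was not tested.

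By level, 5xFAD PBS hippocampus had the highest mean of the 6 groups for each member. Neighbouring groups in the order of means overlapped for all members but Dcn, whose vesicle cortex mean of 9.84 ± 3.72 FPKM was followed by wildtype hippocampus at 30.2 ± 9.71 FPKM (SD, n = 3) with a gap between the libraries.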

How the data were processed

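Groups came from the sample titles. The deposited table holds FPKM computed by the authors; per the submitters' processing notes, the tools were fastp, HISAT2 and HTSeq and the build GRCm39, with no roles or versions listed. Annotation, gene lengths and strand setting: not given in the sources used here. Whole reads were recovered from the deposited FPKM steps (100% of 18683 genes within 0.01 reads) and served for depth and as an alternative.

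Values were taken to log2(FPKM + 0.5), so differences of genes under about 1 FPKM are understated. Genes with at least 0.5 FPKM in 3 libraries were tested with limma 3.58.1 (R 4.3.3, eBayes with trend), using 9 libraries per tissue within tissues and 18 for tissue contrasts and interactions. Benjamini-Hochberg adjustment ran over all genes, and called means an adjusted p under 0.05. The script was tested on simulated data.

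The members, lists and alternatives were chosen with earlier results of these data known. All 10 members are named, with called genes of each list (at most 3 per comparison) and the 5 most similar genes without Gm or Rik symbols. Neighbours, relatives and marker values outside that rule were chosen after their values were seen. Some items are not reported here.

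In cortex between genotypes, the deviations of same-numbered libraries had correlations of 0.213, 0.509 and 0.169, though number 3 matched number 1 best. A replicate block left 0 members called there. In no other comparison did all 3 correlations reach 0.169. Between tissues of the transgenic mice given PBS, numbers 1 and 2 matched themselves best (0.381 and 0.495), and number 3 did not (0.012). Whether 1 number marks 1 mouse in both tissues was not tested. These correlations come from the values, not the labels.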

Additional observations from a re-analysis of the deposited data

Results flagged for a closer look

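For 2 members the tissue difference lay on opposite sides in the 5xFAD groups. Slc22a6 was higher in every hippocampus library than in every cortex library of 5xFAD PBS, and lower in every one in the vesicle group. The interaction, the vesicle effect in hippocampus minus that in cortex, was -1.32 (SE 0.44, unadjusted p = 0.0087, limma adjusted p = 0.99). Fmod showed the same arrangement, with an interaction of -1.78 (SE 0.60, unadjusted p = 0.0088, limma adjusted p = 0.99). Neither passed the adjusted threshold. Replicate 3 of vesicle cortex, the highest library of its group for both genes, is also the one with high choroid plexus markers. Without it, the interaction was -1.21 for Slc22a6 and -1.54 for Fmod (limma adjusted p = 0.9996 for each).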

How the results depend on the processing

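The alternatives were a pseudocount of 0.1 or 1, no filter on low values, median-ratio scaling, a replicate block, voom on recovered reads and leaving out each library. With no filter, 0 members were called between genotypes in the hippocampus (Ogn adjusted p = 0.059), 1 between tissues in wildtype (Lum adjusted p = 0.061), and 1 gene of all passed for the vesicle interaction. Between tissues in the vesicle group, a pseudocount of 1, median-ratio scaling and the replicate block each gave 2 members called (Lum adjusted p = 0.0499, 0.048 and 0.039). In the other comparisons the block moved no member's call; between genotypes in cortex it gave 218 genes called against 256.

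Leaving out 1 library gave 0 to 1 members called between genotypes in the hippocampus, 1 to 2 between tissues in wildtype and 3 to 8 in 5xFAD PBS, where Ogn was lost without cortex replicate 1 or hippocampus replicate 2 (adjusted p = 0.054 and 0.055). The vesicle group kept 1 throughout, and the other comparisons 0. Over all genes the counts were, between genotypes, 142 to 218 in cortex and 320 to 446 (of 611) in hippocampus; between vesicle group and 5xFAD PBS, 0 to 1 in both; between vesicle group and wildtype, 89 to 229 and 159 to 278; between tissues, 1476 to 2178, 2140 to 3320 and 1626 to 2155; and 0 for both interactions. Of 919 values of named genes under the alternatives, 832 kept their direction and side of the threshold, 67 lost the call, 3 gained it and 17 changed sign. The sign changes were in differences that were not called: between wildtype tissues, Fmod with median-ratio scaling (-0.017), and, without 1 library, Fmod (-0.44 to 0.62), Ogn (-0.14 to 0.42), Omd (-0.14 to 0.34) and Bgn (-0.0056 to 0.68); between genotypes, Ogn (-0.18 to 0.38) and Igf2 (-0.0088 to 0.43) in cortex and Slc6a11 (-0.14 to 0.25) in hippocampus. With no filter Crtap, P4ha3, Igf1, Bgn and Igfbp5 also lost their calls, as Crtap, P4ha3 and Igf1 did with the replicate block (adjusted p = 0.072, 0.078 and 0.070). Depth limits Col3a1 most, down to 18 reads.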
